A study of Mus musculus with 2 samples.

Results

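The genes described here are 38 integrin subunit and focal adhesion adaptor genes of the mouse, taken from a fixed list of names. They were read against a list of 17539 GATA4 peaks from cultured skeletal muscle myoblasts. A peak was assigned to a gene when its centre lay in the gene span or within 10 kb of it. Of the 38 genes, 25 had such a peak, and 80 peaks were assigned in all. None of the 80 was assigned to more than 1 of the 38 genes.

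The peaks come from chromatin immunoprecipitation sequencing (ChIP-seq), in which DNA bound by a protein is recovered with an antibody and sequenced. There were 2 libraries without replicates, 1 made with a mixture of 3 antibodies against GATA4 and 1 made with control IgG. The chromatin of both was fixed with 1% formaldehyde. Both came from satellite cell-derived myoblasts of the stock STOCK Myf5tm1Pas/J, whose name states a targeted Myf5 allele. These cells are proliferating muscle precursors, and they were grown in Ham's/F10 with 20% FBS and 20 ng/ml bFGF on collagen, itself a ligand of some of the integrins below. The number of animals behind the cells is not stated in the labels. The list holds positions, widths and a MACS score for each peak, where the score is the authors' value and has no stated scale. Since read counts were not analysed here, the depth behind each score is unknown, and no IgG level stands beside the peaks. The list has no expression values, so the labelled cell type could not be checked against its marker genes.

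Integrins are cell surface receptors made of an alpha and a beta subunit that bind extracellular matrix outside the cell. Inside it, talin and kindlin bind the beta subunit tail and switch the receptor on, while vinculin, alpha-actinin and filamin tie it to actin filaments, and paxillin, focal adhesion kinase and p130Cas pass signals on. In skeletal muscle the integrin of alpha7 and beta1 subunits is a main laminin receptor and helps attach fibres to the matrix and the tendon. The transcription factor GATA4 binds DNA through zinc fingers and is best known for its roles in heart, gut and gonad.

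GATA4 peaks were found at 65.8% of the members (25 of 38, exact 95% binomial interval 48.6% to 80.4%). Over all 21887 protein coding genes the share was 33.3%. The interval covers counting error only, the genes were chosen with earlier results of these data known, and genes are not replicates. Members are also long genes, with a median span of 71.5 kb against 17.2 kb for all protein coding genes, and a long gene offers more room for a peak. Members with a peak had a median span of 84.6 kb and those without one 36.3 kb. The shares are therefore given by length as well. Of the 4 members under 20 kb, 2 had a peak (50%), beside 22.0% of protein coding genes of that length. From 20 to under 50 kb it was 6 of 11 members (54.5%) beside 36.6%. From 50 to under 100 kb it was 6 of 10 (60%) beside 48.6%, and from 100 kb upward it was 11 of 13 (84.6%) beside 65.5%. The member share was the higher one in each class, and in each class the share of all protein coding genes lay inside the exact interval of the members. None of these differences was tested.

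**Figure D1:**
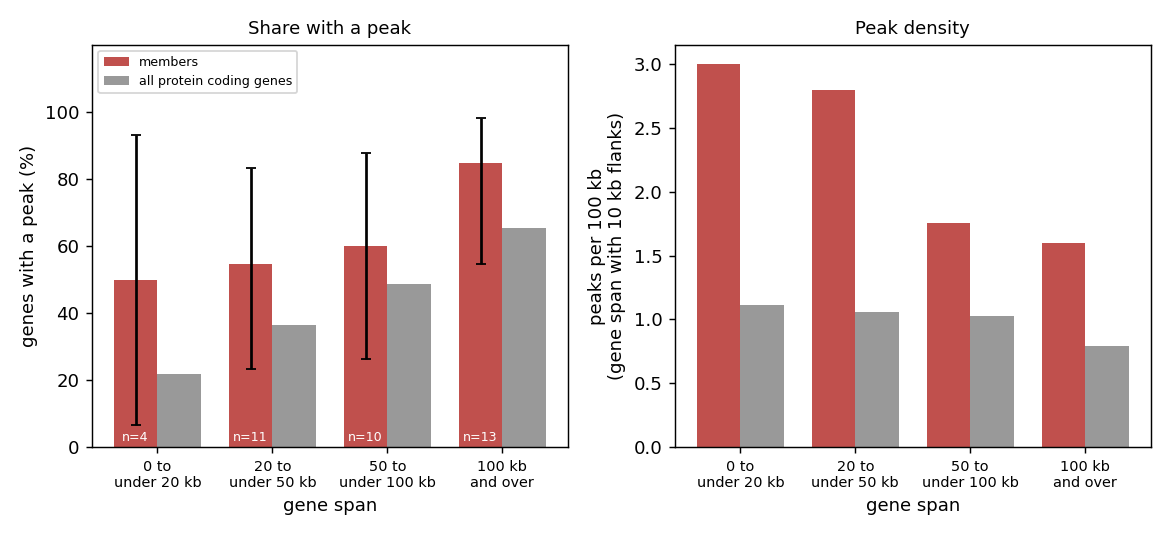
Left, share of genes with a GATA4 peak in the gene span or within 10 kb (%), by gene span, for the members (red, with exact 95% binomial intervals and the number of genes) and for all protein coding genes (grey). Right, peaks per 100 kb of gene span with its 10 kb flanks for the same classes. The red bars are the higher ones in every class, from 50% to 84.6% on the left, and the interval bars on the left reach across the grey values.

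Counted per length, the members held 1.83 peaks per 100 kb of span and flanks, and all protein coding genes 0.943. Close neighbours were counted as separate peaks. Of the 55 gaps between neighbouring peaks of a member, 11 were under 1 kb, at 7 members. The part of such close peaks in the densities was not tested. In the 4 length classes, from short to long, the members held 3.0, 2.80, 1.76 and 1.59 peaks per 100 kb, beside 1.11, 1.06, 1.02 and 0.790. The member values rest on 4, 16, 17 and 43 peaks. The 4 of the shortest class were at Zyx and Itgb7, all scored below the list's median, and all had another protein coding gene within 10 kb. The peaks were unevenly spread over the members. A single peak was assigned to 7 genes, 2 to 4 peaks to 12 genes and 5 or more to 6 genes, and these 6 held 42 of the 80 peaks. Of all protein coding genes 2.18% had 5 or more peaks, against 6 of 38 members (15.8%). Among genes of 100 kb and over it was 15.2%, beside 4 of 13 members.

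Every one of the 25 genes with a peak had at least 1 peak centred inside its own span. The peaks were mostly internal: 66 of the 80 (82.5%) were centred inside the member's span, against 65.3% of the 14042 pairs of a peak and a protein coding gene in reach of it. With a median span of 71.5 kb against 17.2 kb, members have more of the searched length inside the gene. Gene length was not matched in this comparison, and the difference was not tested. Of these 66, 46 were more than 10 kb from either end of the gene. Counting only centres inside the span, 25 of 38 members had a peak and 21.0% of all protein coding genes did. With 1 kb on each side it was the same 25 members and 24.6%, and with 50 kb it was 31 members and 56.8%. Within 10 kb of either gene end alone, leaving out the interior of long genes, 18 members had a peak (47.4%) beside 26.2%. None of these shares was matched for gene length, and none of the differences was tested. The table of genes used here gives no exons, so a peak inside a gene is not placed in an exon, an intron or an untranslated region.

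At 5 members a peak overlapped the promoter window, here the 250 bases before and 50 bases after an annotated start. The sequence table, which is RefSeq's for GRCm38.p6, held 37 such windows of 29 members. That is 17.2% of the 29 genes, beside 8.38% of the 17492 protein coding genes in the table. The 250 bases before the start of these 5 genes are shown because they lie wholly under a GATA4 peak. Capitals mark letters of a motif named below, on either strand.
Itgb1, chr8:128685404-128685653, plus strand: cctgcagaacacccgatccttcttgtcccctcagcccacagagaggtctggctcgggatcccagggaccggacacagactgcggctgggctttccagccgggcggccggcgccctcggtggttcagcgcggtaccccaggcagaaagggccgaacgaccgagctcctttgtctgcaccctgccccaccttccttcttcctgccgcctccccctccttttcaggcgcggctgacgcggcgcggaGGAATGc
Itga4, chr2:79255176-79255425, plus strand: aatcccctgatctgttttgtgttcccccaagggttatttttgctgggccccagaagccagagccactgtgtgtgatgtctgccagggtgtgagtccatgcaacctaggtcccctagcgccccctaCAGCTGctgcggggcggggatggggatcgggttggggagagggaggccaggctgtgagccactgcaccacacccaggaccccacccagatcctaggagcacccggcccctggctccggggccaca
Tln1, chr4:43562584-43562833, minus strand: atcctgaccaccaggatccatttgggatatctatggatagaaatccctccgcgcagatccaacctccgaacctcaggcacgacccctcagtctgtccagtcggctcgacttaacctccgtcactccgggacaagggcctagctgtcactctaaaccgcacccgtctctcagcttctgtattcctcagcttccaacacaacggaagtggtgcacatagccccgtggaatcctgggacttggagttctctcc
Zyx, chr6:42349578-42349827, plus strand: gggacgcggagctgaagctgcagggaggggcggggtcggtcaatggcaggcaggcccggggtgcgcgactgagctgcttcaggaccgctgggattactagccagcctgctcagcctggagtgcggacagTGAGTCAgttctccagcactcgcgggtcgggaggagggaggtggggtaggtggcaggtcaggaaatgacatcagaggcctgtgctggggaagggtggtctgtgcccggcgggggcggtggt
Actn1, chr12:80260364-80260613, minus strand: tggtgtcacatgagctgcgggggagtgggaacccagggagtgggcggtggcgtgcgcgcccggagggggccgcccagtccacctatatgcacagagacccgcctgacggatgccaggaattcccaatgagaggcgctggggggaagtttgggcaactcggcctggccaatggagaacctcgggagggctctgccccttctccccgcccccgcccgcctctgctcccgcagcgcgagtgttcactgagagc

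None of these 5 windows held any of the GATA letters searched, which were AGATAA or AGATAG or TGATAA or TGATAG on either strand. Over all 32851 promoter windows, 29.8% held at least 1 of them, and of the 2004 windows overlapped by a peak 23.8% did. The Zyx window held the AP-1 letters TGANTCA, 121 bases before the start (7.81% of all windows). The Itgb1 window held the TEAD letters GGAATG, whose first base is 7 bases before the start (14.7% of all windows). In the Itga4 window there was an E box, CAGCTG or CAGGTG, 125 bases before the start (32.9% of all windows). The Tln1 and Actn1 windows held none of these and no SRF CArG box, a motif found in 1.63% of all windows. The motifs do not overlap each other in these windows. A match describes letters and not a bound site, and most of each peak lies outside the letters shown. In the 250 bases shown, CpG pairs numbered 21 in Itgb1, 18 in Actn1, 15 in Zyx, 12 in Tln1 and 6 in Itga4. The median was 6 over all windows and 16 over windows overlapped by a peak. Itgb1 and Actn1 were thus above the median of windows overlapped by a peak, Zyx and Tln1 between both medians, and Itga4 at the median of all windows.

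Of the 37 member windows, 4 held GATA letters (10.8%), and none of these 4 was overlapped by a peak. Those of Lims1, at the start at 58351963, and of Cav1, at the start at 17307640, are shown as the ones nearest to a peak in the gene. The GATA letters in capitals begin 213 bases before the start in Lims1 and 216 before it in Cav1, where an E box stands in capitals too. The same Lims1 window holds GATA letters at 2 further places not shown whole here, AGATAA from the base before the start and TGATAG from 36 bases after it.
Lims1, chr10:58351713-58351962, plus strand: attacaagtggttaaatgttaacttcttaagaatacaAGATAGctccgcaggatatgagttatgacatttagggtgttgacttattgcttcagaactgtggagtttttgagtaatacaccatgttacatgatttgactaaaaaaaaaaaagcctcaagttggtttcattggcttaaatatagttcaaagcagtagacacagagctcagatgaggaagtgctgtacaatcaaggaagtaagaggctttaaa
Cav1, chr6:17307390-17307639, plus strand: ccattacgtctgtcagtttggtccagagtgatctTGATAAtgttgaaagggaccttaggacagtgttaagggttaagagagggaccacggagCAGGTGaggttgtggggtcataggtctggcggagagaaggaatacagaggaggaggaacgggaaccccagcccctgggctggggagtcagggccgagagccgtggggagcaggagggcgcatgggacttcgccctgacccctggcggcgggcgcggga

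The nearest Lims1 peak was centred 0.626 kb past that start, and this peak begins beyond the window. The nearest Cav1 peak was centred 4.24 kb past its start. The other windows with GATA letters belong to a further Lims1 start and to Itgb7. Itga6, Itga7, Itgb3, Itgb4, Tln2, Pxn, Ptk2, Lims2 and Parva had no entry. SRF CArG boxes stood in the windows of Vcl, Fermt2 and Itgb6, which is 3 of the 37 member windows (8.11%), beside 1.63% of all windows. E boxes stood in 13 of the 37 (35.1%), beside 32.9%. TEAD letters stood in 7 (18.9%), beside 14.7%, and AP-1 letters in 4 (10.8%), beside 7.81%. None of these differences was tested.

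Among the alpha subunits, those that bind RGD-containing ligands such as fibronectin and vitronectin each had 1 peak. Itga5 pairs with beta1 as the classical fibronectin receptor and lies at chr15:103344286-103366791. Its peak (103358494 to 103359504, score 174) was centred 7.79 kb past the start, inside the gene, and 13.8% of all peaks in the list scored higher. Itgav encodes the subunit of the vitronectin receptors, at chr2:83722303-83806917. It had a peak with a score of 122 (83727959 to 83728773), 3.97 kb past its listed start. Itga8, which pairs with beta1 and binds nephronectin, had a peak with a score of 93.2, 88.7 kb into the gene. All 3 peaks were thus internal, and only those of Itga5 and Itgav were above the list's median score of 99.3.

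Of the 3 laminin-binding alpha subunits only Itga7 had peaks. Itga7 is the laminin receptor subunit of muscle and a surface marker of satellite cells, and it lies at chr10:128933421-128958286. A peak with a score of 185 (128930854 to 128932084, 1231 bp wide) was centred 1.95 kb outside the lower-coordinate end. Another outside that end, at 4.79 kb, scored 124, and a peak inside the gene (128937693 to 128938144) scored 97.0. The 3 peaks lie within 10 kb of each other and straddle that end of the gene. Bloc1s1 is also within 10 kb of both outer peaks, and Rdh5 of the outermost. Chromosome 10 is dense in peaks, with 48.3% of its 1001 protein coding genes having a peak by the same rule. Itga3 and Itga6, the laminin receptor subunits best known from epithelia, had none, and their nearest peaks were 40.3 and 128 kb away.

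The collagen-binding alpha subunits had few peaks. Only Itga11, a receptor subunit for fibrillar collagen, had any, with scores of 65.1 and 101, both inside the gene at 34.6 and 47.6 kb past the start. Another 4 peaks lay between 10 and 50 kb beyond its far end. Itga1, Itga2 and Itga10 had none. For Itga1, which spans 144 kb, the nearest peak was 148 kb away, beyond its neighbour Itga2, and the same peak was the nearest to Itga2 at 23.1 kb. Together these 4 genes had 2 peaks, or 0.446 per 100 kb, below the 0.943 of all protein coding genes. A value below 0.943 was not particular to them. The alpha4 and alpha9 subunits had 0.485 and the RGD-binding ones 0.828, while the laminin-binding ones had 1.59.

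Itga4 encodes the subunit that binds VCAM1 and fibronectin and lies at chr2:79255426-79333114. Its 2 peaks stand side by side at the start. One (79255168 to 79255985, score 84.3) covers the start, and the other (79253459 to 79254763, score 131) ends 404 bp before it begins, so that its centre is 1.32 kb before the start. The wider peak with the higher score is thus the one outside the gene. Itga9, a related subunit with a span of 294 kb, had no peak within reach, and the nearest was 16.3 kb outside it with a score of 182.

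Of the beta subunits, 5 of 7 had peaks, 12 in all. Itgb1 is the common partner of most of the alpha subunits above and lies at chr8:128685654-128733579. A peak with a score of 118 (128685048 to 128685913) covers its start, with its centre 0.174 kb before it, and a further peak with a score of 89.6 lay 12.2 kb past it. There were 3 more peaks between 10 and 50 kb on the lower-coordinate side, where the start is, with scores of 97.0 at 13.5 kb, 149 at 18.8 kb and 73.5 at 34.9 kb. Itgb1 thus had peaks over its start, inside it and before it, and the highest of them, at 149, was outside the 10 kb limit.

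The highest score of any member was in Itgb6, which pairs with alphav and is best known from epithelia. The peak at chr2:60699658-60701490 had a score of 395 and was 1833 bp wide, the widest at any member. It ranked 109th of the 17539 peaks and lay 22.0 kb past the first listed start, inside the gene (chr2:60598292-60722603). Of the other 4 peaks in Itgb6, the nearest had a score of 185 and lay between this peak and the other 3, which scored 92.2, 106 and 107. Itgb5, another partner of alphav, spans chr16:33829665-33949338. Its 3 peaks were all inside the gene with scores of 138, 234 and 70.6 at 59.5, 87.3 and 112 kb past the start, the middle one being 1279 bp wide. Itgb3 had a peak of only 326 bp with a score of 88.7, and Itgb7 one with a score of 63.9. Itgb3 pairs with alphav and with the platelet subunit, and Itgb7 is an integrin of lymphocytes. Both single peaks are below the median score, and that of Itgb3 is the narrowest at any member. Itgb4, the hemidesmosome subunit, and Itgb8 had none, with the nearest peaks 19.6 and 48.9 kb away.

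**Figure D2:**
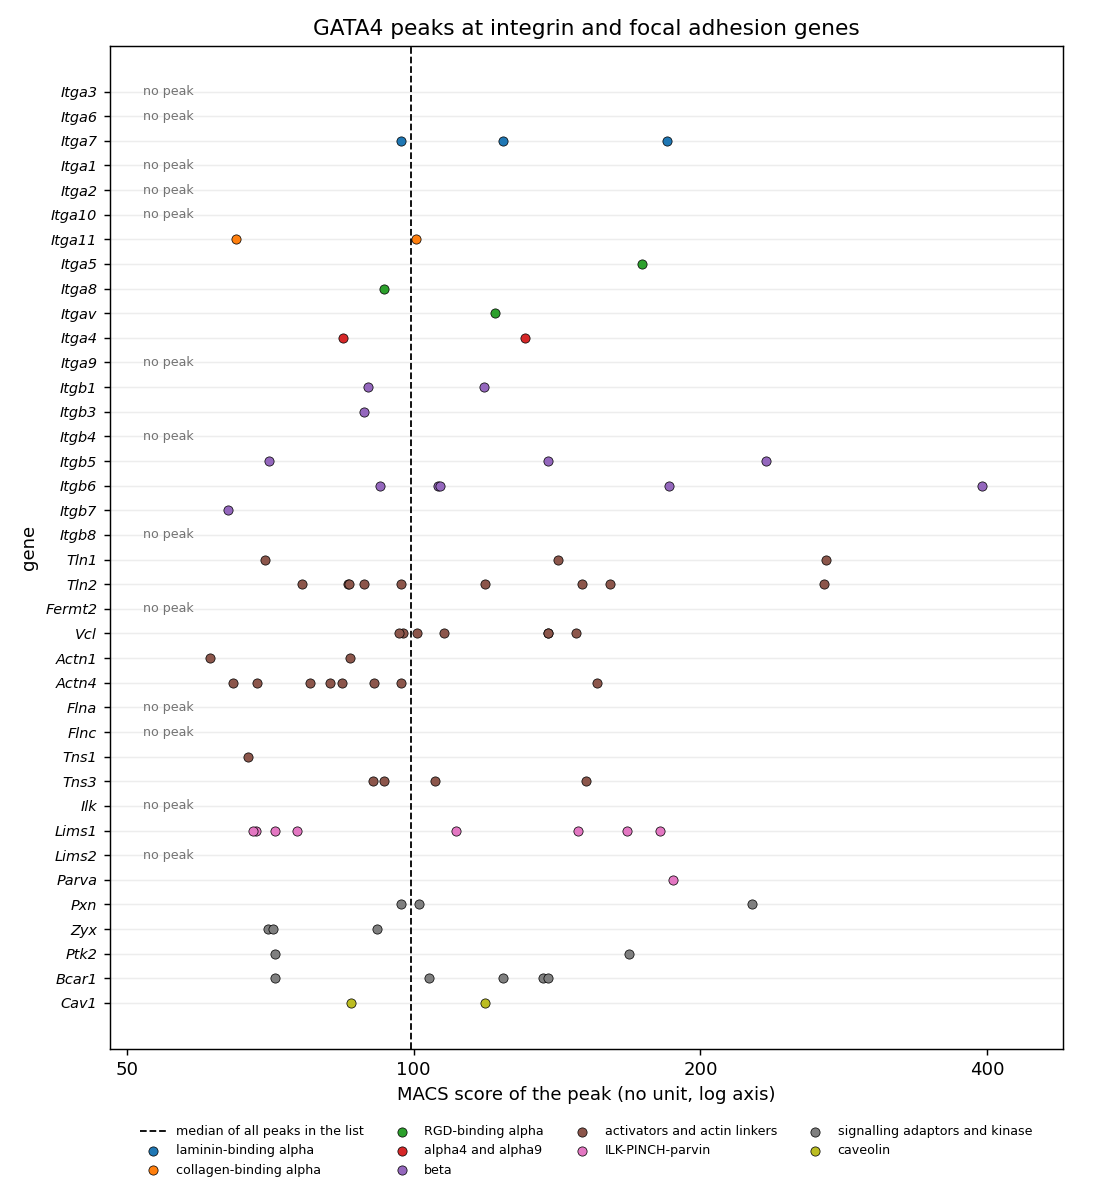
MACS score of each of the 80 GATA4 peaks (x axis, no unit, log scale) at the 38 genes (y axis), coloured by role, with the median of all 17539 peaks as a dashed line. Peaks stand on both sides of the median of 99.3, Itgb6 has the highest at 395, and 13 genes have none.

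The proteins that activate integrins or link them to actin had 34 peaks at 7 of 10 genes. This is the role with the most genes and the longest total span, and per length it held 2.28 peaks per 100 kb, beside 3.20 for the signalling adaptors and 2.32 for the complex of integrin-linked kinase. Both talin genes were among them. Tln1 lies at chr4:43531513-43562583, and a peak with a score of 142 (43561964 to 43563068) covers its start. A listed start of Creb3, which points away from Tln1, is under the same peak. The peak with the higher score of 271 (43529975 to 43531003) was centred 1.02 kb past the other end of Tln1 and is within 10 kb of Tpm2 too. A further peak inside Tln1 scored 69.9. Tln2, the talin of striated muscle and brain, is the longest member at 417 kb (chr9:67217085-67634045) and had the most peaks, 9, all inside it. The highest scored 269.5 (67463370 to 67464559), and 3.21% of the list scored higher. The peak nearest the lower-coordinate end scored 88.7. The other 7 stood between 67539526 and 67605730. Of these, 4 were in a row from 67539526 to 67546579, with gaps of 153, 3027 and 372 bp and scores of 85.3, 97.0, 161 and 85.6. The last 3 scored 119, 150.2 and 76.4. With 2.06 peaks per 100 kb Tln2 was close to the 1.83 of the whole member list.

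Vcl, encoding vinculin, lies at chr14:20929383-21033676 and had 7 peaks, all inside it. Their scores ran from 96.6 to 148, a narrow range beside that of Tln2, and 5 of the 7 were above the median of the list. The first (20930465 to 20931526, score 108) was centred 1.60 kb past the start. The others scored, along the gene, 97.5, 138, 101, 138, 148 and 96.6. The pair at 138 were 419 and 426 bp wide. Vcl had 5.63 peaks per 100 kb on a chromosome where 24.2% of protein coding genes had a peak by the same rule. A peak with a score of 188 lay 12.3 kb before the gene, just beyond reach.

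Actn4, a non-muscle alpha-actinin, had 8 peaks at chr7:28893248-28962351, or 8.98 per 100 kb. Only 1 of the 8 was above the median score, at 156 (28953523 to 28954416). It closes a row of 3 peaks in which the gaps were 244 and 152 bp and the others scored 84.1 and 64.6. This row lay 8.36 to 10.2 kb past the start. The 4 peaks farther into the gene scored 90.9, 97.0, 81.6 and 68.5, and 1 before the start scored 77.8. The other alpha-actinin of non-muscle cells, Actn1, had a peak with a score of 85.7 (80260275 to 80261065) over its start and another with a score of 61.1 inside, the lowest of the 80. Tensins link integrin tails to actin. Tns3 had 4 internal peaks with scores from 90.6 to 152, and Tns1, which spans 214 kb, had 1 with a score of 67.1. Fermt2, the kindlin of muscle and fibroblasts, and the filamin genes Flna and Flnc had none.

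**Figure D3:**
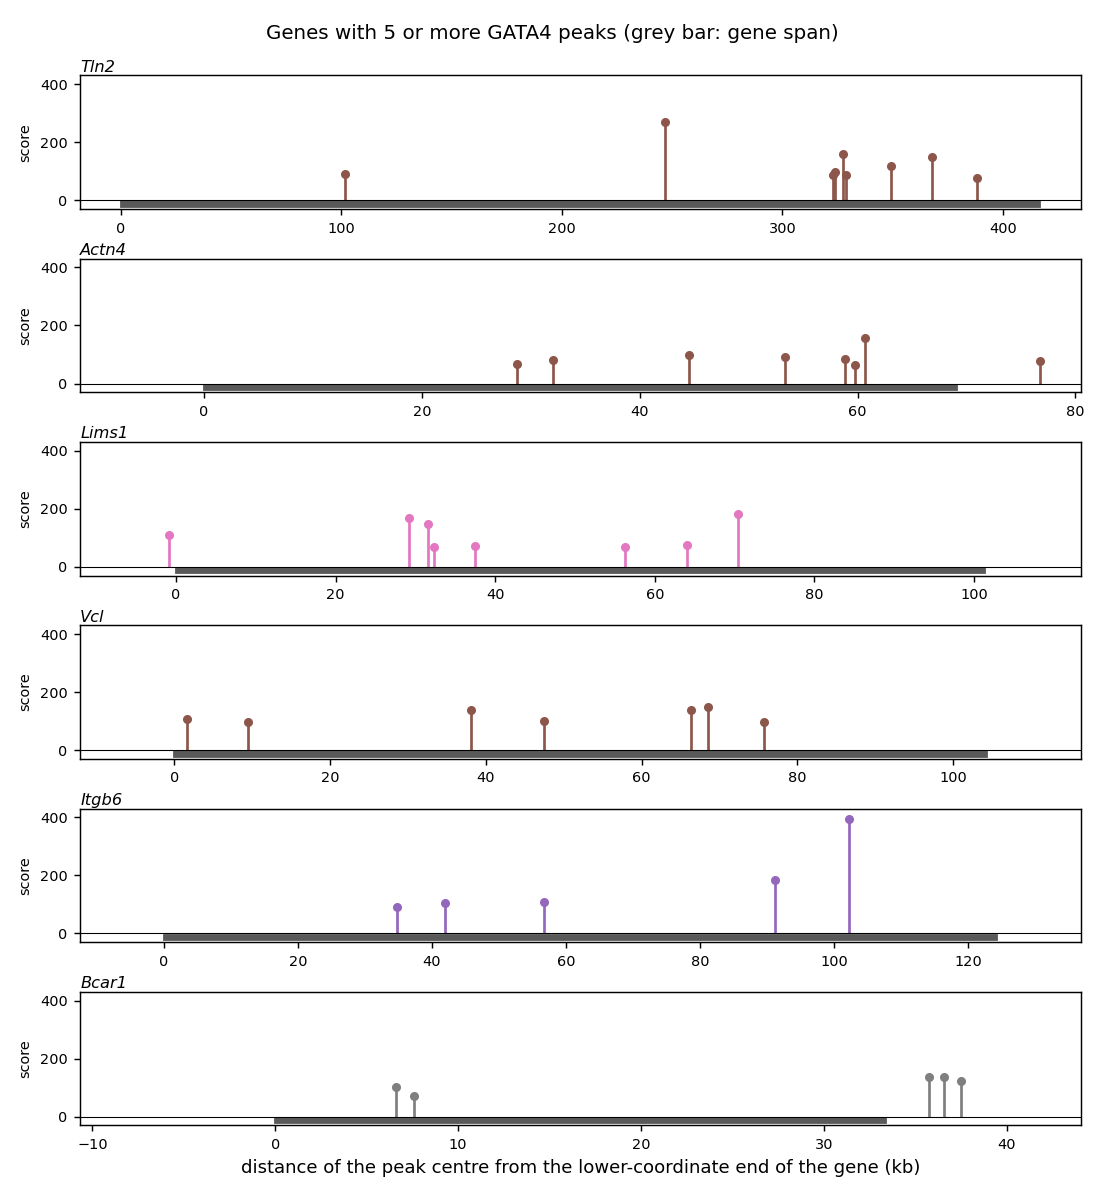
Position of each GATA4 peak centre (x axis, kb from the lower-coordinate end of the gene) and its MACS score (y axis, no unit) for the 6 members with 5 or more peaks, with the gene span as a grey bar. Peaks stand in rows in Tln2, Actn4 and Bcar1, and those of Bcar1 with the higher scores are beyond the end of the gene where transcription starts.

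Integrin-linked kinase, PINCH and parvin form a complex that joins beta subunits to actin, and 2 of its 4 genes here had peaks. Lims1, encoding PINCH1, had 8 peaks at chr10:58323342-58424691, also on chromosome 10. The first listed start had a peak 1.05 kb before it with a score of 111 (58321878 to 58323116). A group of 4 followed from 0.626 to 8.80 kb past the second listed start, with scores of 167, 149, 68.4 and 71.6. The last 3 followed the third listed start, with scores of 67.9 and 75.5 and, 22.3 kb past it, the highest of the gene at 181 (58393427 to 58394035). Parva, encoding alpha-parvin, had a single peak in a span of 164 kb, at chr7:112455029-112456421. That peak was 1393 bp wide with a score of 187, the sixth highest of the 80. Ilk itself, the shortest member at 6.34 kb, and Lims2 had none, the nearest being 68.3 and 189 kb away.

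All 4 signalling adaptors and kinases had peaks, 13 in all or 3.20 per 100 kb. Pxn encodes paxillin and lies at chr5:115491970-115555987. A peak with a score of 101 (115491735 to 115492687) covers its lower-coordinate end, and a peak with a score of 227 (115489276 to 115490656) was centred 2.0 kb outside it, inside the neighbouring gene Sirt4. The remaining peak, inside Pxn, scored 97.0. Ptk2, encoding focal adhesion kinase, spans 219 kb (chr15:73205102-73423820) and had 2 internal peaks, with scores of 168 (73318583 to 73319322) and 71.6 (73248995 to 73249555). That is 0.838 peaks per 100 kb, beside 0.790 for protein coding genes of 100 kb and over and 0.943 for those of any length. Bcar1, encoding p130Cas, had 5 peaks at chr8:111710474-111743849. A row of 3 (111745626 to 111748221), separated by 24 and 487 bp, lay 2.37 to 4.14 kb before its first start with scores of 137, 138 and 124, and a pair inside scored 104 and 71.6. Zyx, encoding zyxin, is 10.7 kb long and had 3 peaks with scores of 70.3, 71.1 and 91.6, at 0.775 kb before, 0.0345 kb past and 4.65 kb past its start. It had the highest density of any member at 9.77 peaks per 100 kb, although all 3 scores were below the median. Cav1, the caveolin that binds integrin partners, had a peak with a score of 119 inside the gene and another with a score of 86.1 at 7.15 kb past its far end.

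Listed starts had a peak centre within 1 kb at 6 of the 29 members with an entry (20.7%), beside 9.22% of protein coding genes. These were Itga4, Itgb1, Tln1, Zyx, Actn1 and Lims1. The peaks overlapping the promoter windows scored from 71.1 to 142. Those of Itgb1 (118) and Tln1 (142) were above the list's median of 99.3, and those of Itga4, Zyx and Actn1 were below it. Their scores were not compared with those of internal peaks as a group.

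The 13 members without a peak were Itga1, Itga2, Itga3, Itga6, Itga9, Itga10, Itgb4, Itgb8, Fermt2, Flna, Flnc, Ilk and Lims2. Their nearest peaks lay from 16.3 kb away for Itga9 to 189 kb for Lims2, and 7 of them had none within 50 kb. Flna, which encodes filamin A, is on chromosome X, where 10.5% of protein coding genes had a peak. A missing call says only that no peak was listed, since the depth of the library is unknown. At the edge of the 10 kb rule, the farthest peak counted was 7.67 kb from Actn4, with a score of 77.8, and the nearest one not counted was 10.6 kb from Actn1, with a score of 124.

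As a group the member peaks scored like the list. Their median score was 99.0 (exact 95% interval from order statistics 91.6 to 118), beside 99.3 for all peaks, and 40 of the 80 were above the list's median. Above the upper quartile of 138 there were 20 of 80. Scores over 200 were held by 5 of the 80, in Itgb6, Tln1, Tln2, Itgb5 and Pxn, and by 8.87% of all peaks. Counting only peaks above the median score, 19 of 38 members had a peak, beside 18.8% of protein coding genes. Counting only the 4245 peaks above the upper quartile it was 13 members (34.2%, exact 95% interval 19.6% to 51.4%), beside 9.84%. Neither share was matched for gene length, and neither difference was tested. The median width was 811 bp, beside 745 bp in the list, and the range was 326 to 1833 bp. Integrin subunits had 22 peaks at 11 of 19 genes, or 1.08 per 100 kb, and the adaptors, linkers and caveolin had 58 at 14 of 19, or 2.48 per 100 kb. Their median scores were 106 and 97.0.

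Some scores recur many times. A set of 11 values was each carried by at least 100 peaks, together 25.1% of the list, and 14 member peaks (17.5%) had such a score. These include the 97.0 of Itga7, Tln2, Pxn and Actn4 and the 138 of a pair in Vcl and of 1 peak in Bcar1. The 14 were narrow, from 381 to 596 bp with a median of 543 bp, and the other 66 had a median of 842 bp. In the whole list the medians were 494 and 800 bp. The part of the repeated values in the ranks above was not tested. Without these peaks 25 members had a peak, beside 27.8% of protein coding genes.

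**Figure D4:**
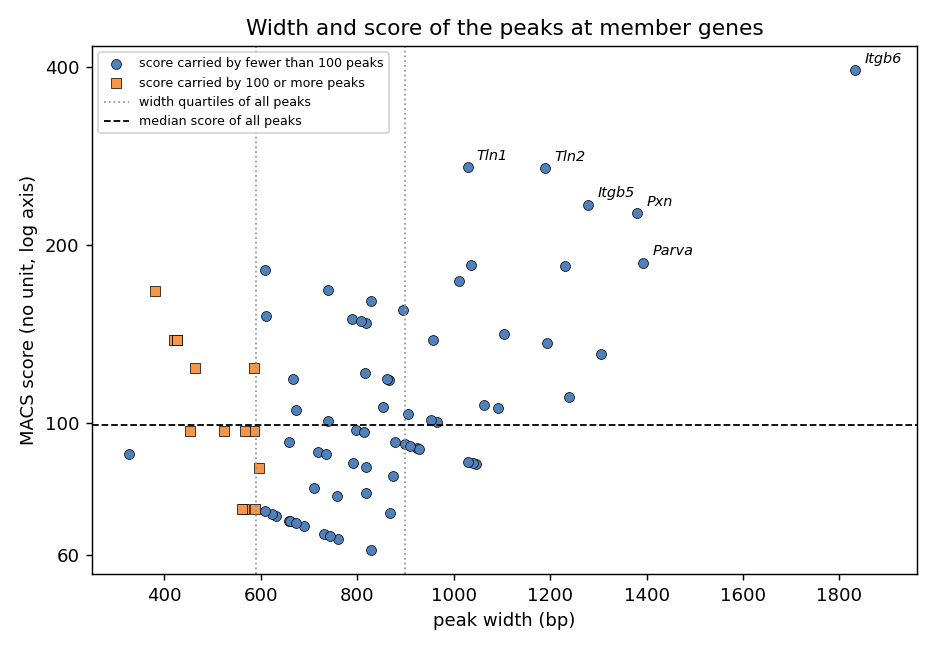
Width (x axis, bp) and MACS score (y axis, no unit, log scale) of the 80 member peaks, with squares for scores that 100 or more peaks of the list share, dotted lines for the width quartiles of all peaks (589 and 899 bp) and a dashed line for their median score. The squares are no wider than 596 bp, and the 6 named peaks, from Parva at 187 to Itgb6 at 395, are at least 1029 bp wide.

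Assignment by distance does not say which gene a peak belongs to. For 13 of the 80 peaks another protein coding gene was also within 10 kb, and for 2 of them, in Pxn (Sirt4) and Actn4 (Eif3k), that gene was nearer. All peaks of Tln1, Zyx, Itgb7 and Tns1 were of this kind. The remaining 67 peaks had only the member in reach.

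Other genes of the adhesion pathway were read the same way from a list of 48, which also was written with earlier results of these data known. Of these, 29 had a peak (60.4%), beside 33.3% of all protein coding genes. The 48 genes had a median span of 44.5 kb, and some of them, such as Lpp at 599 kb, are far longer. By length, the share was 36.6% of protein coding genes from 20 to under 50 kb and 65.5% of those of 100 kb and over. Gene length was not matched for these 48 genes, and the difference was not tested. The most were at Palld, encoding palladin, with 16 peaks and a highest score of 284. Lpp, a relative of zyxin, had 11 with a highest score of 235. Parvb had 7 against 1 in Parva, and Nedd9, a relative of Bcar1, had 5. Rhoa, Crk, Crkl, Rock1, Sorbs3, Ptk2b and the kindlins Fermt1 and Fermt3 had none. Of 7 integrin genes of blood cells and platelets, with a median span of 35.4 kb, only Itga2b had a peak, with a score of 80.4. That is 14.3%, beside 33.3% of all protein coding genes and 36.6% of those from 20 to under 50 kb. With so few genes the difference was not tested. Itgal, Itgam, Itgax, Itgad, Itgae and Itgb2 had none, and Itgb2 is on chromosome 10.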

How the data were processed

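ChIP-seq libraries of GATA4 and IgG were made from myoblasts, 1 of each, and only the GATA4 peak list was used. The tools CASAVA 1.8 and Bowtie and the build GRCm38 (mm10) are named in the submitters' processing notes, and MACS in Galaxy is named in the file header. No source used here gives the MACS version, its threshold, the handling of duplicates or whether IgG served as control. The deposited score is the authors' value per peak and was compared only within this list. Starts were converted from 0-based to 1-based. Peaks were joined to 21887 protein coding genes of a RefSeq table of GRCm38.p6 by their centre, using Python 3.11.15 and pandas 2.3.3. Intervals are exact (SciPy 1.17.1) and cover counting error only. Counting was checked on made-up positions. Since each antibody has 1 library, no comparison between them was tested. Members and lists were chosen with earlier results of these data known. The score of each peak is given for genes with the 12 highest-scoring peaks, the 5 with the most peaks (ties kept) and Itgb1, Itga7, Itga5, Itgav, Tln1, Vcl, Pxn and Ptk2. The other members are given more briefly, and genes named from the list of 48 were chosen after their values were seen. Alternatives changed the window, the score threshold, the overlap, the assignment and the chromosomes. Some genes of the list of 48 are not reported here by name.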

Additional observations from a re-analysis of the deposited data

How the results depend on the processing

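The number of members with a peak was 25 and kept within 1.5 times of that in 10 of 11 alternatives. It was 25 inside the span, with 1 kb, by any base of a peak (33.6% of protein coding genes), by nearest gene (27.0%) and without the repeated scores (27.8%). It was 31 with 50 kb, 23 of 36 without chromosome 10 (32.6%), 21 without peaks in reach of another gene (20.3%), 19 above the median score and 18 near gene ends. Among the 4245 peaks above the upper quartile of the scores it was 13, since fewer peaks are counted. The number of peaks, 80, was 40 above the median score for the same reason, 66 inside the span, 116 with 50 kb, 78 by nearest gene, 67 without peaks in reach of another gene and 66 without repeated scores. The median score, 99.0, was 97.0 inside the span and 99.0 in both other alternatives. Leaving out peaks in reach of another gene or with repeated scores was chosen after seeing the data. No paired analysis was possible because each antibody has 1 library. The depth is unknown, so a gene without a peak cannot be told from one below detection.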
